A study of Homo sapiens with 12 samples.

Results

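The tumours described here are 3 xenografts collected after 2 weeks of palbociclib and 3 collected after 2 weeks of vehicle, which make up 6 of the 12 tumours of the study. The other 6 had the same treatments but were left to recover for a time that is not stated, and they enter the shared estimate of spread and are otherwise used only where named. All 12 tumours grew from MCFDCIS, a human mammary cell line used as a model of ductal carcinoma in situ, after its cells were placed under the skin of athymic nude mice, which lack a thymus. Grafts had 2 weeks to take before treatment began, and palbociclib was given by gavage at 50 mg per kg each day. The vehicle is not described in the labels, whose protocol field repeats the palbociclib text for vehicle tumours, and no group carries a named genetic change. A single line in a host without mature T cells limits the model, and nothing says whether the 3 tumours of a group came from separate mice, so a p-value here speaks of the spread among these tumours, which may be technical. The host's own cells are mouse cells, so the tumour cells were read from the human rows of each file, those with identifiers that start with ENSG. Of 58243 human identifiers, 18628 had enough counts to be tested.

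Palbociclib blocks the kinases CDK4 and CDK6, which join D-type cyclins to phosphorylate the retinoblastoma protein RB1 and so free E2F transcription factors to start DNA replication. Cells held back at that step stop making the transcripts of S phase and mitosis. A separate system, the hypoxia-inducible factors, switches on genes of glucose uptake, glycolysis and vessel growth when oxygen is short, as it often is inside a growing solid tumour. The question asked here was how the tumour cells' transcripts differed between palbociclib and vehicle at the end of treatment, above all outside the cell cycle.

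Human counts came to between 9313272 and 10626182 in palbociclib tumours and between 6613880 and 11176483 in vehicle tumours. Mouse genes took 16.95%, 17.6% and 25.4% of assigned counts in palbociclib tumours 1, 2 and 3, against 16.5%, 15.5% and 17.4% in vehicle tumours 1, 2 and 3 (exact two-sided permutation p = 0.2, where 0.1 is the smallest possible). Vehicle tumours 2 and 3 stood apart by their mitochondrial genes, which took 5.32% and 11.2% of human counts, against 1.33% in vehicle tumour 1 and 1.01% to 2.21% in palbociclib tumours. On the first principal component of the 6 libraries, with 38.7% of the variance, palbociclib tumours lay between -32.3 and -21.8 and vehicle tumours between 10.9 and 43.8. Vehicle recovery tumour 2 lay far from the other 11 libraries, and it affects the shared estimate of spread. The 12 markers set down for the line were all detected, with the keratin KRT17 at 3352, 3536 and 3354 CPM in palbociclib tumours 1, 2 and 3, against 3166, 2985 and 3013 CPM in vehicle tumours 1, 2 and 3. Of 33 marker genes of blood, vessel, stroma, fat and muscle cells, 19 were below 1 CPM (counts scaled to the size of the library) in all 6 tumours, among them the globin gene HBB, which was at 0. The summed level of the 33 genes ran from 357 to 540 CPM in palbociclib tumours and from 468 to 643 CPM in vehicle tumours, most of it from S100A9, COL3A1 and PECAM1. Their part in the results was not tested.

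Far more genes fell than rose. At an adjusted p under 0.05 by edgeR (quasi-likelihood test, Benjamini-Hochberg adjustment over all tested genes), called passing below, 343 genes (1.84%) passed, of which 317 fell (1.7% of those tested) and 26 rose (0.14%). Of the 317, 190 belong to a list of 390 tested cell cycle and replication genes, 32 are histone genes of the genomic clusters, 27 belong to a list of hypoxia response and glycolysis genes, and 68 are none of these. All 26 genes that rose stood outside the cell cycle list, where 153 of 18238 genes (0.839%) passed. Without regard to p, 2104 genes (11.3%) were lower in all 3 palbociclib tumours than in any vehicle tumour and 1750 (9.39%) were higher in all of them, and 1836 genes had an unadjusted p under 0.05. In bulk tumours, fewer cells of a kind and less RNA per cell cannot be told apart, and this holds for every value below. The count of 343 genes became 159 without palbociclib tumour 1, 173 without palbociclib tumour 3, 196 without vehicle tumour 2, 748 without vehicle recovery tumour 2, and 95, all of them lower, without vehicle tumours 2 and 3. In 12 leave-one-out fits, which each drop 1 library, 148 of the 343 passed every time, 142 lower and 6 higher, and no gene of the 343 changed sign in any of 25 settings.

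**Figure D1:**
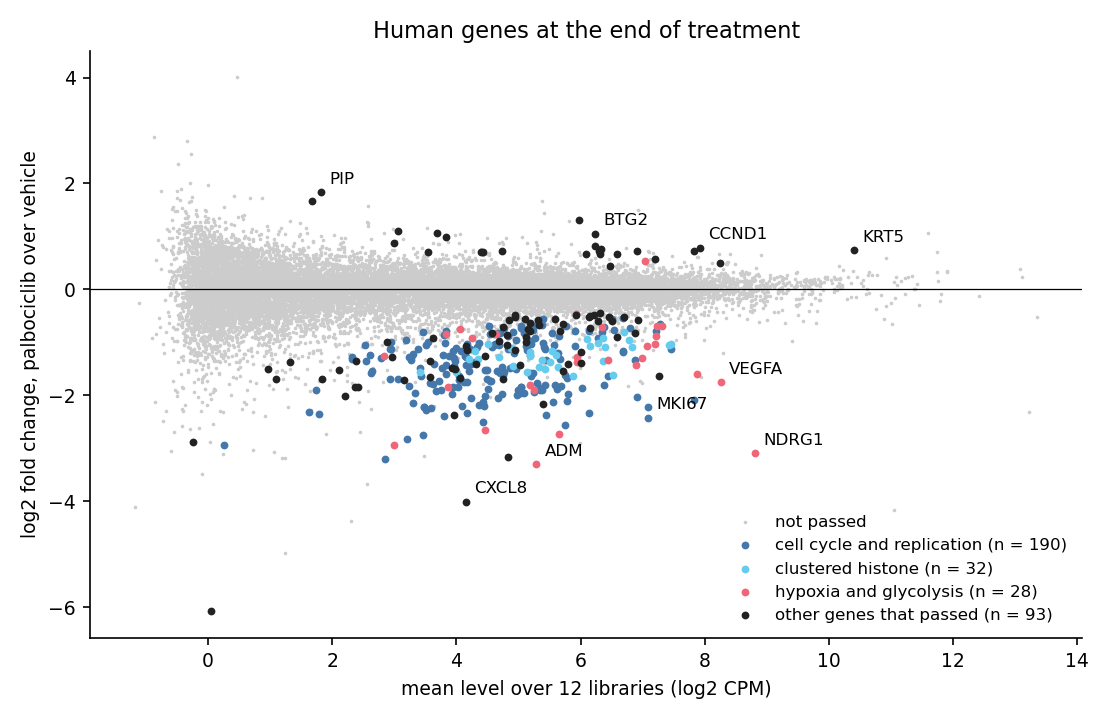
Each point is 1 of 18628 human genes, with its mean level over 12 libraries on the x axis (log2 CPM) and the log2 fold change of palbociclib over vehicle tumours at the end of treatment on the y axis. Coloured points passed, 317 below the line and 26 above it, and the hypoxia and glycolysis genes reach as far down as the cell cycle genes.

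The cell cycle genes were the largest group that fell. The median log2 change was -0.79 over all 390 tested genes of the list. Over the 190 that fell it was -1.43, and 150 of them were at least 2-fold lower. The proliferation marker MKI67 had 37.7, 56.2 and 28.9 CPM in palbociclib tumours 1, 2 and 3, against 185, 272 and 200.4 CPM in vehicle tumours 1, 2 and 3. The groups were far apart, and the palbociclib tumours were not equal among themselves. Tumour 3 held the lowest value for 164 of the 190 genes and tumour 2 the highest for 161, and the median coefficient of variation was 25.6% among palbociclib tumours and 12.6% among vehicle tumours. TOP2A, the topoisomerase of dividing cells, had 39.2, 61.6 and 27.4 CPM in palbociclib tumours 1, 2 and 3, against 229.7, 202 and 167 CPM in vehicle tumours 1, 2 and 3. Palbociclib tumour 2 had more than its group mates in both genes. The count of 190 was 110 without palbociclib tumour 1, 117 without palbociclib tumour 3, 75 without vehicle tumours 2 and 3 and 99 with the mouse share as a covariate. Palbociclib tumour 3, lowest for most of these genes and of the histone genes below, also had the highest mouse share, at 25.4%.

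Histone genes of the clusters, which package newly copied DNA and are transcribed mainly in S phase, fell alongside. Of 71 such genes in the files 51 were tested and 32 fell (62.7%, beside 1.7% of all tested genes). The median log2 change was -1.17 over the 51, against 0.00 over all tested genes. The family was put together after its values had been seen. By type, 4 of 5 tested H1 genes, 6 of 11 H2A genes, 14 of 17 H2B genes, 5 of 8 H3 genes and 3 of 10 H4 genes fell. Of the 32, 30 lie on chromosome 6 between 26017085 and 27893843 (GRCh38) and 2 on chromosome 1 between 149782689 and 149887916. HIST1H1A, a linker histone, had 23.96, 27.5 and 15.9 CPM in palbociclib tumours 1, 2 and 3, against 72.2, 49.6 and 53.2 CPM in vehicle tumours 1, 2 and 3. The core histone HIST1H4A had 8.82, 7.13 and 5.12 CPM in palbociclib tumours 1, 2 and 3, against 26.3, 18.5 and 17.1 CPM in vehicle tumours 1, 2 and 3. Both were lowest in palbociclib tumour 3 and highest in vehicle tumour 1, with no overlap between the groups. Their log2 fold changes were -1.38 ± 0.20 (SE, edgeR adjusted p = 0.0018) and -1.56 ± 0.23 (edgeR adjusted p = 0.0017), and both passed in all 12 leave-one-out fits. HIST1H2AJ, at -1.50 ± 0.23, also passed in all 12. Palbociclib tumour 3 was lowest for 31 of the 32 genes and vehicle tumour 1 highest for 29. The count of 32 was 8 without palbociclib tumour 1, 13 without palbociclib tumour 3, 12 without vehicle tumour 1, 16 without vehicle tumour 2, 4 without vehicle tumours 2 and 3, 5 with the mouse share as a covariate and 15 with that of the third unnamed row, while the median over the family stayed between -1.41 and -0.93 in the 12 leave-one-out fits. Sequences of these genes are close to each other and the handling of reads that fit several copies is not stated, so a value of a single histone gene is uncertain.

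Outside cell division the largest group that fell was that of low oxygen and sugar metabolism. In the hypoxia response and glycolysis list 27 of 77 tested genes fell (35.1%) and 1, PNRC1, rose. Over all tested genes 1.7% fell and 0.14% rose. The median log2 change over the 77 was -0.61. In 53 of the 77 (68.8%) every palbociclib tumour was below every vehicle tumour, beside 11.3% of all tested genes. Of the 27, 18 were at least 2-fold lower. Their tumours were ordered differently from those of the cell cycle genes: vehicle tumour 2 was highest for 24 of the 27 and vehicle tumour 1 lowest for 19, whereas cell cycle genes were highest in vehicle tumour 1 for 114 of 190. Among palbociclib tumours no tumour dominated, with the lowest value in tumour 1 for 11 genes, in tumour 2 for 9 and in tumour 3 for 7. The median coefficient of variation of the 27 was 12.2% among palbociclib tumours and 20.5% among vehicle tumours, beside 11.5% and 15.04% over all tested genes. The count of 27 was 14 without palbociclib tumour 1, 14 without palbociclib tumour 3, 16 without vehicle tumour 2, 41 without vehicle recovery tumour 2 and 7 without vehicle tumours 2 and 3.

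**Figure D2:**
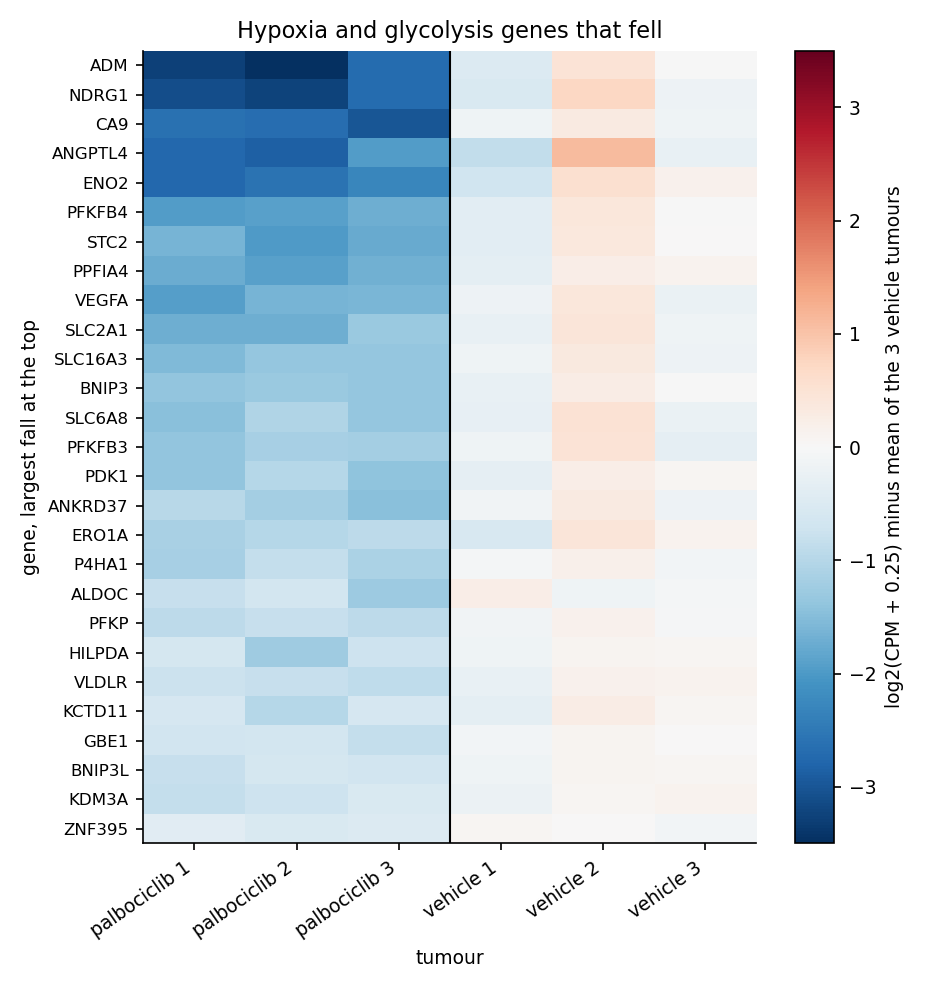
Rows are the 27 hypoxia and glycolysis genes that fell, columns the 3 palbociclib and the 3 vehicle tumours, and colour gives log2(CPM + 0.25) minus the mean of the 3 vehicle tumours. The 3 palbociclib columns are blue, and vehicle tumour 2 is the highest vehicle tumour in 24 of the 27 rows.

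Glucose entry, its breakdown and the export of lactate were all represented. SLC2A1, the glucose transporter GLUT1, had 80.9, 80.6 and 106 CPM in palbociclib tumours 1, 2 and 3, against 218, 349.7 and 238 CPM in vehicle tumours 1, 2 and 3. SLC16A3, which exports lactate, had 44.3, 51.2 and 51.3 CPM in palbociclib tumours 1, 2 and 3, against 116, 166 and 115 CPM in vehicle tumours 1, 2 and 3. Vehicle tumour 2 was the highest for both and the groups did not overlap. The log2 fold changes were -1.59 ± 0.21 (SE, edgeR adjusted p = 0.001) for SLC2A1 and -1.44 ± 0.17 (edgeR adjusted p = 3.7e-04) for SLC16A3. PFKFB4, one of the enzymes that make the activator of phosphofructokinase, had 12.4, 12.9 and 14.8 CPM in palbociclib tumours 1, 2 and 3, against 37.4, 63.6 and 48.4 CPM in vehicle tumours 1, 2 and 3. It carried the smallest p of the list, with a log2 change of -1.89 ± 0.19 (edgeR adjusted p = 9.2e-05), and its relative PFKFB3 was at -1.29 ± 0.20. PFKP, the platelet form of phosphofructokinase, fell by less, at -0.89 ± 0.13 (edgeR adjusted p = 0.0014). The neuronal enolase ENO2 had 4.36, 4.86 and 6.08 CPM in palbociclib tumours 1, 2 and 3, against 18.6, 45.3 and 33.7 CPM in vehicle tumours 1, 2 and 3, a log2 change of -2.66 ± 0.32 (edgeR adjusted p = 5.9e-04). PDK1, a kinase that inhibits pyruvate dehydrogenase, was at -1.27 ± 0.19 (edgeR adjusted p = 0.0019). SLC2A1, SLC16A3, PFKFB4, PFKFB3, PFKP, ENO2 and PDK1 passed in all 12 leave-one-out fits. Of 23 tested enzymes and transporters of glycolysis 8 fell (34.8%, beside 1.7% of all tested genes) and none rose, the eighth being the aldolase ALDOC. Other enzymes had smaller values that did not pass: TPI1 at -0.61 ± 0.15, PGK1 at -0.58 ± 0.15, HK2 at -0.62 ± 0.17 and LDHA at -0.64 ± 0.23 (edgeR adjusted p = 0.057, 0.081, 0.087 and 0.29). PGK1 had 345, 384 and 322 CPM in palbociclib tumours 1, 2 and 3, against 523, 555 and 489.8 CPM in vehicle tumours 1, 2 and 3, so its groups were apart although it did not pass. SLC2A1, BNIP3, PDK1, PFKP, PFKFB3, P4HA1, VEGFA and these 4 enzymes that did not pass were chosen for naming after their values had been seen.

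Of the secreted factors in the list, VEGFA, the main growth factor of blood vessels, had 105, 129 and 132 CPM in palbociclib tumours 1, 2 and 3, against 355, 533 and 344 CPM in vehicle tumours 1, 2 and 3. ADM, which encodes the vasodilator peptide adrenomedullin, had 5.88, 3.72 and 8.98 CPM in palbociclib tumours 1, 2 and 3, against 42.6, 82.3 and 58.7 CPM in vehicle tumours 1, 2 and 3. Vehicle tumour 2 was again highest, the groups were far apart, and the log2 fold changes were -1.75 ± 0.22 (SE, edgeR adjusted p = 7.9e-04) for VEGFA and -3.30 ± 0.32 (edgeR adjusted p = 2.1e-04) for ADM. ADM lies on chromosome 11 from 10304680 to 10307397 and VEGFA on chromosome 6 from 43770184 to 43786487. ANGPTL4, a secreted inhibitor of lipoprotein lipase, had 9.35, 8.68 and 16.5 CPM in palbociclib tumours 1, 2 and 3, against 35.6, 139 and 53.8 CPM in vehicle tumours 1, 2 and 3. Vehicle tumour 2 stood well above the other vehicle tumours there, and ANGPTL4 passed with 1 library left out only where that library was any 1 of palbociclib recovery tumours 1, 2 and 3 or vehicle tumours 1 and 3. The secreted glycoprotein hormone STC2 was at -1.85 ± 0.34 (edgeR adjusted p = 0.011), and STC2 did not pass when any 1 of palbociclib tumours 1, 2 and 3 or vehicle tumour 2 was left out.

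Further members of the list have other roles. CA9, a carbonic anhydrase at the cell surface that regulates pH, had 1.69, 1.65 and 1.25 CPM in palbociclib tumours 1, 2 and 3, against 10.5, 14.7 and 10.4 CPM in vehicle tumours 1, 2 and 3. NDRG1, a stress-response gene and among the most abundant of the group, had 82.02, 73.97 and 108 CPM in palbociclib tumours 1, 2 and 3, against 482, 1152 and 619.6 CPM in vehicle tumours 1, 2 and 3. Every palbociclib tumour was far below every vehicle tumour in both genes. Their log2 fold changes were -2.94 ± 0.39 (SE, edgeR adjusted p = 0.001) and -3.09 ± 0.42 (edgeR adjusted p = 0.0024). BNIP3, a receptor for the removal of mitochondria, had 27.4, 28.6 and 27.9 CPM in palbociclib tumours 1, 2 and 3, against 60.2, 86.1 and 70.4 CPM in vehicle tumours 1, 2 and 3, a log2 change of -1.37 ± 0.18 (edgeR adjusted p = 7.0e-04). ADM, VEGFA, CA9, NDRG1 and BNIP3 passed in all 12 leave-one-out fits. P4HA1, which hydroxylates collagen, was at -1.04 ± 0.19 (edgeR adjusted p = 0.0088), and P4HA1 did not pass when any 1 of palbociclib tumours 1 and 3 or vehicle tumour 2 was left out. The liprin gene PPFIA4 was at -1.81 ± 0.33 (edgeR adjusted p = 0.014), and PPFIA4 did not pass when any 1 of palbociclib tumours 1, 2 and 3 or vehicle tumour 2 was left out. VLDLR, a lipoprotein receptor that also stands in the stress list, was at -0.84 ± 0.13 (edgeR adjusted p = 0.0035) and passed in all 12. NDUFA4L2 was listed with oxidative phosphorylation but is known as a gene induced by low oxygen. It had 19.5, 24.4 and 20.8 CPM in palbociclib tumours 1, 2 and 3, against 60.9, 64.3 and 62.8 CPM in vehicle tumours 1, 2 and 3, a log2 change of -1.54 ± 0.32 (edgeR adjusted p = 0.029), and NDUFA4L2 passed with 1 library left out only where that library was any 1 of palbociclib recovery tumours 1, 2 and 3 or vehicle recovery tumour 1. With vehicle tumour 1 as the lone vehicle tumour of the stage, assumed to vary like the other groups, ADM, VEGFA, CA9, NDRG1, PFKFB4, ENO2 and SLC16A3 were the 7 that passed, among them ADM at -2.78 and VEGFA at -1.54 (edgeR adjusted p = 0.007 and 0.031). SLC2A1 at -1.29 and BNIP3 at -1.10 did not (edgeR adjusted p = 0.058 and 0.068).

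The upstream sequence of these genes was searched for ACGTG and GCGTG, the core letters bound by hypoxia-inducible factors, on both strands of a window from 250 bases before to 50 bases after the transcription start (RefSeq, GRCh38.p14). Of the 27 genes that fell 22 matched a window, and 18 of these (81.8%) held the letters. The share was 29 of 39 (74.4%) among list members that did not pass and 7274 of 11894 (61.2%) among all tested genes with a window, so the letters are common everywhere. Shown here are the 5 genes of the 27 with the smallest p that hold a match within the 250 bases before the start, chosen with the matches known. Each line gives those 250 bases 5′ to 3′ along the gene's strand, and capitals mark the letters named above on either strand.
PFKFB4: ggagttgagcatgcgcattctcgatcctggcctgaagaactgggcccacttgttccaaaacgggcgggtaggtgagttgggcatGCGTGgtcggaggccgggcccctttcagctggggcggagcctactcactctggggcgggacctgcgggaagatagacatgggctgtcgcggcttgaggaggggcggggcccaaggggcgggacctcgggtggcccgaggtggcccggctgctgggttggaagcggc
ADM: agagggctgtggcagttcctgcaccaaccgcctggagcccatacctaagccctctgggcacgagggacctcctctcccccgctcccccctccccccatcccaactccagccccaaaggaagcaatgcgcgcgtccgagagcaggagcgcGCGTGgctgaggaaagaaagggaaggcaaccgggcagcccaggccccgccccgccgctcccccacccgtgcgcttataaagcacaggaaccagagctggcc
ENO2: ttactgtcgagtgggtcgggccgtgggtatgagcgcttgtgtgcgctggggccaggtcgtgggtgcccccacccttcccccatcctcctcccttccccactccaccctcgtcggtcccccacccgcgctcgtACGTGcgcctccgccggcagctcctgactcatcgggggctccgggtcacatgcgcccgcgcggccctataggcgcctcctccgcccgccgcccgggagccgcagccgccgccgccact
BNIP3: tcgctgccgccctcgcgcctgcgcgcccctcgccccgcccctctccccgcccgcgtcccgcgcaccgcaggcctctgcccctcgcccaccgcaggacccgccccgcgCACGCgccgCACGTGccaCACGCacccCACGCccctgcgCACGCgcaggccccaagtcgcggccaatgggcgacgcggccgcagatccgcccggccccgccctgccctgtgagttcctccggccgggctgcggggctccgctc
CA9: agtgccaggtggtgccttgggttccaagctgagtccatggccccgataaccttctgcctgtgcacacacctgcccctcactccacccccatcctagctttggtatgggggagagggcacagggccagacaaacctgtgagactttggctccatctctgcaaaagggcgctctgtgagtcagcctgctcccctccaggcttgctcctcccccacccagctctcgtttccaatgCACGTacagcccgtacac
Counted from the start, the first letter of the match lies at -166 in PFKFB4, at -101 in ADM, at -118 in ENO2 and at -18 in CA9. BNIP3 holds 6 matches, some of them overlapping, from -143 to -104. SLC16A3, PFKP, PDK1 and SLC6A8 fell without a match in their windows.

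The stretches lie, for PFKFB4 at chr3:48556804-48557053 on the minus strand, for ADM at chr11:10304823-10305072 on the plus strand, for ENO2 at chr12:6914330-6914579 on the plus strand, for BNIP3 at chr10:131981924-131982173 on the minus strand and for CA9 at chr9:35673678-35673927 on the plus strand.

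The windows of the cell cycle genes that fell were searched as well, and 104 of 157 (66.2%) held the hypoxia letters. TTTGAA, the cell cycle homology region bound by complexes that hold mitotic genes down in resting cells, was found on either strand in 71 of 157 (45.2%) of their windows, against 1249 of 11894 (10.5%) of those of all tested genes, 8 of 27 (29.6%) of those of histone genes that fell, 0 of 22 of those of hypoxia and glycolysis genes that fell and 5 of 39 (12.8%) of those of list members that did not pass. The E2F letters TTTGGCGC or TTTCCCGC were in 17.2% of the windows of cell cycle genes that fell and in 3.46% of all windows. Shown are the helicase gene PIF1 and the mitotic gene GTSE1, the cell cycle genes with the smallest p that hold TTTGAA in the 250 bases before the start, with it or its reverse complement in capitals.
PIF1: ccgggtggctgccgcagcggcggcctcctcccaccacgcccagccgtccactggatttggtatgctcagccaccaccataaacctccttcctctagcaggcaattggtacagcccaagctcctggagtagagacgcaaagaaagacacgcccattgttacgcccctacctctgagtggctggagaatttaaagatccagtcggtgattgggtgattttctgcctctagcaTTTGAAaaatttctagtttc
GTSE1: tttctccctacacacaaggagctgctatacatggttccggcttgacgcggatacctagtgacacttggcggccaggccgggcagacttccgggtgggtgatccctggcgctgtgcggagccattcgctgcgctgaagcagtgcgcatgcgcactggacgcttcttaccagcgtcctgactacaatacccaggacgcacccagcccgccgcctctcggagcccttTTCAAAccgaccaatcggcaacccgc
The match begins at -20 in PIF1 and at -26 in GTSE1. The stretches lie, for PIF1 at chr15:64825648-64825897 on the minus strand and for GTSE1 at chr22:46296620-46296869 on the plus strand. The AP-1 letters TGAGTCA were in 13.6% of the windows of hypoxia and glycolysis genes that fell (3 of 22) and in 3.55% of all windows. None of these matches shows that a factor was bound.

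A few chemokines and cytokines fell, and their levels were uneven among vehicle tumours. CXCL8, which draws neutrophils, had 1.69, 3.41 and 2.70 CPM in palbociclib tumours 1, 2 and 3, against 11.9, 58.6 and 56.2 CPM in vehicle tumours 1, 2 and 3. CXCL1, a chemokine with the same receptor, had 5.61, 6.61 and 6.85 CPM in palbociclib tumours 1, 2 and 3, against 15.1, 97.03 and 59.3 CPM in vehicle tumours 1, 2 and 3. Vehicle tumour 1 had several times less of both than vehicle tumours 2 and 3, and still more than any palbociclib tumour. The log2 fold changes were -4.01 ± 0.63 (SE, edgeR adjusted p = 0.0068) and -3.16 ± 0.57 (edgeR adjusted p = 0.017). Against vehicle tumour 1 alone, with both vehicle tumours of high mitochondrial share left out, they were -2.20 and -1.25 and neither passed (edgeR adjusted p = 0.13 and 0.35). CXCL8 did not pass when palbociclib tumour 1 was left out, and CXCL1 did not pass when any 1 of palbociclib tumours 1, 2 and 3 or vehicle recovery tumour 2 was left out. In a fit of the 6 libraries alone, without the recovery tumours, CXCL8 was at -4.01 and CXCL1 at -3.15. Neither passed there (edgeR adjusted p = 0.12 and 0.18). IL36G, an interleukin of the IL1 family, had 1 count in the 3 palbociclib tumours together and 70 in the 3 vehicle tumours, a palbociclib to vehicle ratio of 0.0118 for equal depth (95% counting interval 0.000295 to 0.0679). That interval treats the pooled reads as the unit and leaves out the spread among tumours. The edgeR adjusted p of IL36G was 0.03, and IL36G passed with 1 library left out only where that library was any 1 of palbociclib recovery tumours 1, 2 and 3, vehicle tumour 1 or vehicle recovery tumour 1. CXCL8, CXCL1 and IL36G are the 3 of 33 tested cytokine genes that fell (9.09%, beside 1.7% of all tested genes), and none rose. The median over the 33 was -0.77 on the log2 scale. That median was -0.21 against vehicle tumour 1 alone. The count of 3 was 0 without palbociclib tumour 1, 1 without palbociclib tumour 2 or 3, 2 without vehicle tumour 2 or 3, 6 without vehicle tumour 1 or palbociclib recovery tumour 1, and 0 without vehicle tumours 2 and 3. Without vehicle recovery tumour 3 it was 2, and 1 rose. DESeq2 called 9 lower and 1 higher, and limma voom 6 lower and 1 higher. CCL20, LIF, IL1A and CSF3, named after their values had been seen, did not pass at -3.19 ± 0.76, -0.97 ± 0.23, -1.92 ± 0.64 and -4.97 ± 1.92. CSF3, a growth factor of neutrophils, had 0.267, 0.207 and 0.193 CPM in palbociclib tumours 1, 2 and 3, against 0.433, 14.2 and 8.23 CPM in vehicle tumours 1, 2 and 3, so nearly all of that difference came from vehicle tumours 2 and 3.

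Targets and regulators of NF-kappaB, the factor that drives many of these cytokines, were mostly negative. None of 32 tested genes passed in the main edgeR fit, against 6 by DESeq2 and 7 by limma voom. Other edgeR fits called 8 lower with the 6 libraries alone, 5 without vehicle tumour 1 and 5 without vehicle recovery tumour 2. With no low-count filter 11 of 33 fell. The count stayed at 0 without vehicle tumour 2, vehicle tumour 3 or any 1 of palbociclib tumours 1, 2 and 3. An unadjusted p under 0.05 was found for 18 (1836 of 18628 over all tested genes). Negative values were found for 29 (9286 of 18628 over all tested genes). The median of the list was -0.51, against -0.13 without vehicle tumours 2 and 3, -0.27 with the mitochondrial share as a covariate and -0.29 with that of the last unnamed row. Every palbociclib tumour was below every vehicle tumour in 17 of the 32 (53.1%), beside 11.3% of all tested genes. RELB, a subunit of the factor, had 13.98, 14.1 and 14.1 CPM in palbociclib tumours 1, 2 and 3, against 20.8, 21.1 and 23.7 CPM in vehicle tumours 1, 2 and 3, a log2 change of -0.64 ± 0.16 (SE, edgeR adjusted p = 0.064). TNFAIP3, its feedback inhibitor, had 9.80, 9.92 and 7.72 CPM in palbociclib tumours 1, 2 and 3, against 16.6, 54.2 and 42.6 CPM in vehicle tumours 1, 2 and 3. Vehicle tumour 1 was again the lowest of its group for TNFAIP3, which was at -2.03 ± 0.48 (edgeR adjusted p = 0.068) over all tumours and at -0.86 against vehicle tumour 1 alone. The adhesion molecule ICAM1 and the prostaglandin synthase PTGS2 showed the same order of vehicle tumours and did not pass, at -1.28 ± 0.37 and -1.65 ± 0.61. Mitochondrial ribosomal RNA was highest in the same vehicle tumours: MT-RNR1 had 689, 824 and 1991 CPM in palbociclib tumours 1, 2 and 3, against 2189.6, 17079 and 43368 CPM in vehicle tumours 1, 2 and 3. With the mitochondrial share as a covariate 0 of the 33 cytokine genes fell, and their median was -0.60. With the share of the last unnamed row 0 fell and the median was -0.56. Beyond these fits the part of mitochondrial RNA in the cytokine values was not tested. MT-RNR1 and MT-RNR2 did not pass, at -4.16 ± 1.05 and -2.32 ± 0.88 (edgeR adjusted p = 0.092 and 0.36). None of 15 genes of the mitochondrial genome passed in the main edgeR fit, against 1 by DESeq2 and 0 by limma voom (3 at an unadjusted p under 0.05). By edgeR 1 fell without vehicle tumour 1, and with no low-count filter 4 fell and 1 rose.

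Growth factor genes fell at a few members only in the main fit. Of 68 tested genes of the EGF family, insulin and MAPK list 4 fell (5.88%) and 1 rose (1.47%), and the median was -0.14. Over all tested genes 1.7% fell and 0.14% rose. In the list 12 fell and 5 rose with limma voom, and 9 and 3 with DESeq2. With the 6 libraries alone 8 fell and 6 rose, and without vehicle recovery tumour 2 it was 8 and 3. Without palbociclib tumour 1, palbociclib tumour 2 or vehicle tumour 2 it was 2 and 1. HBEGF, a ligand of the EGF receptor, had 12.02, 11.1 and 12.4 CPM in palbociclib tumours 1, 2 and 3, against 23.9, 52.97 and 37.6 CPM in vehicle tumours 1, 2 and 3. EREG, another such ligand, had 50.6, 53.6 and 59.9 CPM in palbociclib tumours 1, 2 and 3, against 122, 235 and 156 CPM in vehicle tumours 1, 2 and 3. Vehicle tumour 2 was the highest for both ligands, and the groups did not overlap. HBEGF was at -1.68 ± 0.23 (SE, edgeR adjusted p = 0.0013) and passed in all 12 leave-one-out fits. EREG was at -1.64 ± 0.33 (edgeR adjusted p = 0.029), and EREG did not pass when any 1 of palbociclib tumours 1, 2 and 3 or vehicle tumours 2 and 3 was left out. DUSP10, a phosphatase of stress kinases, fell at -1.26 ± 0.18 (edgeR adjusted p = 0.0012), as did the insulin receptor substrate IRS2 at -1.14 ± 0.24 (edgeR adjusted p = 0.027). DUSP10 passed in all 12, and IRS2 did not pass when any 1 of palbociclib tumours 1, 2 and 3 or vehicle tumours 1 and 2 was left out. The one gene that rose was PIK3R3, a regulatory subunit of phosphoinositide 3-kinase, with 129, 142 and 149 CPM in palbociclib tumours 1, 2 and 3, against 87.6, 86.4 and 89.1 CPM in vehicle tumours 1, 2 and 3, a log2 change of 0.68 ± 0.10 (edgeR adjusted p = 0.0022) that also passed in all 12. NRG1, a ligand of ERBB3 and ERBB4, had 84.9, 68.6 and 93.5 CPM in palbociclib tumours 1, 2 and 3, against 44.6, 43.8 and 35.8 CPM in vehicle tumours 1, 2 and 3 and did not pass at 0.99 ± 0.25 (edgeR adjusted p = 0.08), though its groups were apart.

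Some early-response transcription factors fell too. Of 42 tested genes of the AP-1, EGR and early-response list 5 fell (11.9%, beside 1.7% of all tested genes) and none rose, with a median of -0.12. FOS had 31.4, 32.5 and 31.7 CPM in palbociclib tumours 1, 2 and 3, against 64.9, 87.6 and 63.9 CPM in vehicle tumours 1, 2 and 3, almost the same value in each palbociclib tumour. JUN, its partner in AP-1, had 59.8, 52.5 and 58.9 CPM in palbociclib tumours 1, 2 and 3, against 96.2, 121 and 101.4 CPM in vehicle tumours 1, 2 and 3. Their log2 fold changes were -1.18 ± 0.15 (SE, edgeR adjusted p = 4.6e-04) and -0.89 ± 0.13 (edgeR adjusted p = 0.002), and both passed in all 12 leave-one-out fits. CSRNP1, a nuclear protein of the early response, was at -0.70 ± 0.13 (edgeR adjusted p = 0.011), and CSRNP1 did not pass when palbociclib tumour 3 was left out. KLF4 was at -1.35 ± 0.31 (edgeR adjusted p = 0.04), and KLF4 passed with 1 library left out only where that library was any 1 of vehicle recovery tumours 1 and 2. MAFF was the fifth. PPP1R15A, which ends the block on translation after stress, was 1 of 2 genes that fell in a list of 42 for amino acid and unfolded protein stress, with 31.1, 26.8 and 28.3 CPM in palbociclib tumours 1, 2 and 3, against 63.01, 87.6 and 74.98 CPM in vehicle tumours 1, 2 and 3. It was at -1.39 ± 0.16 (edgeR adjusted p = 2.5e-04) and passed in all 12, and the other gene was VLDLR. The median of that list was 0.08.

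Rises were fewer and smaller, with 6 of 26 at least 2-fold. CCND1, the D-type cyclin that pairs with the drug's targets, had 293, 345 and 365 CPM in palbociclib tumours 1, 2 and 3, against 183, 204 and 193 CPM in vehicle tumours 1, 2 and 3. BTG2, an inhibitor of proliferation and a p53 target, had 128, 132 and 153 CPM in palbociclib tumours 1, 2 and 3, against 69.4, 60.1 and 69.3 CPM in vehicle tumours 1, 2 and 3. The groups were well apart in both genes, with log2 fold changes of 0.79 ± 0.12 (SE, edgeR adjusted p = 0.002) and 1.05 ± 0.14 (edgeR adjusted p = 7.2e-04). MXD4, which competes with MYC for its partner MAX, stood in the MYC and ribosome list and had 109, 109.8 and 112 CPM in palbociclib tumours 1, 2 and 3, against 77.4, 60.6 and 60.9 CPM in vehicle tumours 1, 2 and 3. MXD4 was the one of 47 tested members to pass (2.13%), at 0.73 ± 0.12 (edgeR adjusted p = 0.0037), and no member fell. Of all tested genes 0.14% rose and 1.7% fell. The calcium sensor VSNL1 was at 0.76 ± 0.13 and INSYN2B at 0.98 ± 0.15 (edgeR adjusted p = 0.0053 and 0.0029). CCND1, BTG2, MXD4, VSNL1, INSYN2B and PIK3R3 are the 6 rises that passed in all 12 leave-one-out fits. ENPP2, which encodes the enzyme autotaxin that makes lysophosphatidic acid, had 117, 169.5 and 136 CPM in palbociclib tumours 1, 2 and 3, against 60.1, 57.4 and 52.5 CPM in vehicle tumours 1, 2 and 3, a log2 change of 1.31 ± 0.25 (edgeR adjusted p = 0.018), and ENPP2 did not pass when any 1 of palbociclib tumours 2 and 3 or vehicle tumours 1, 2 and 3 was left out. TP53INP1, another p53 target, was at 0.67 ± 0.15 (edgeR adjusted p = 0.032), and TP53INP1 passed with 1 library left out only where that library was any 1 of vehicle recovery tumours 1, 2 and 3. POLH, a repair polymerase of the p53 list, fell at -0.53 ± 0.13 (edgeR adjusted p = 0.047), and POLH passed with 1 library left out only where that library was vehicle recovery tumour 2. The p53 list as a whole had a median of 0.02 over 42 tested genes, of which 2 rose (4.76%) and 1 fell (2.38%).

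**Figure D3:**
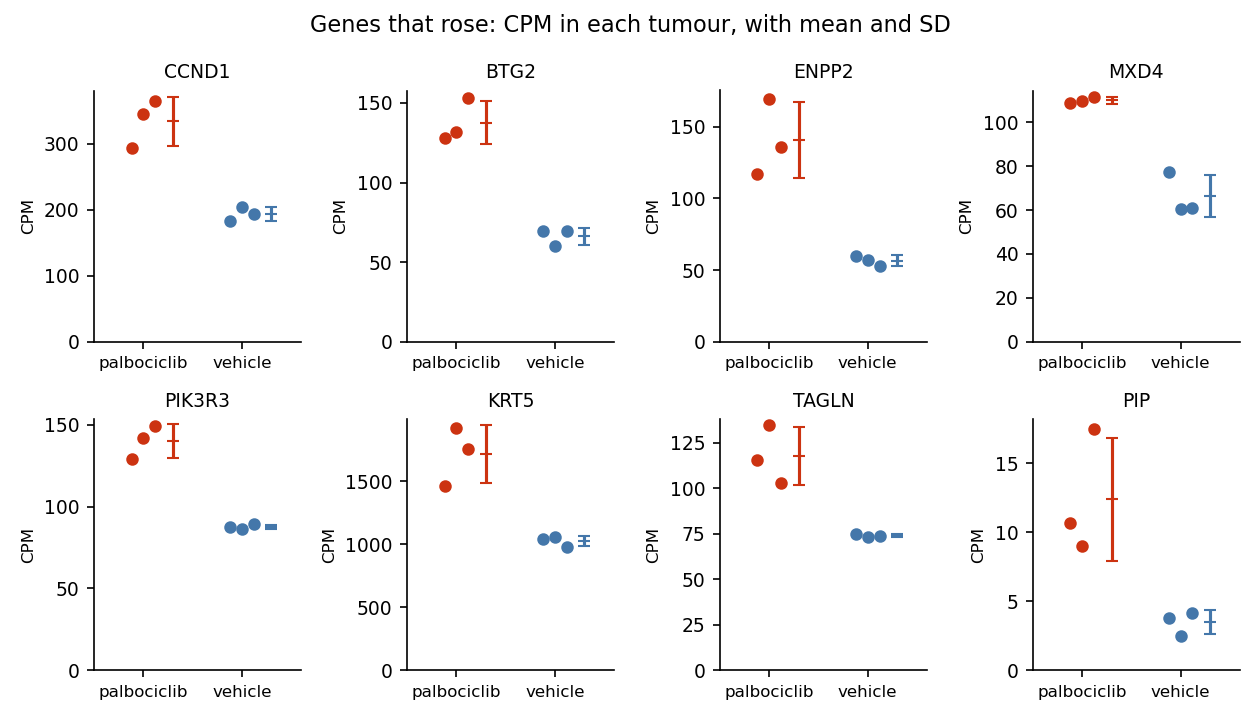
Each panel shows CPM (y axis, from 0) of 1 gene that rose in the 3 palbociclib tumours and the 3 vehicle tumours, with the mean and SD beside the points. In each panel, of CCND1, BTG2, ENPP2, MXD4, PIK3R3, KRT5, TAGLN and PIP, the lowest palbociclib tumour is above the highest vehicle tumour.

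Genes of the cells' basal and secretory identity moved a little. Of 37 tested basal and myoepithelial genes 4 rose (10.8%, beside 0.14% of all tested genes) and none fell, with a median of 0.12. The count of 4 was 0 without palbociclib tumour 1, palbociclib tumour 2 or vehicle tumour 2. It was 1 without palbociclib tumour 3, vehicle tumour 1 or vehicle tumour 3. With the mitochondrial share or that of the last unnamed row as a covariate it was 0. KRT5, the basal keratin, had 1464, 1919.9 and 1756 CPM in palbociclib tumours 1, 2 and 3, against 1038, 1058 and 979 CPM in vehicle tumours 1, 2 and 3. TAGLN, an actin-binding protein of contractile cells, had 116, 135.03 and 103 CPM in palbociclib tumours 1, 2 and 3, against 74.97, 73.4 and 73.9 CPM in vehicle tumours 1, 2 and 3. The vehicle tumours lay close together in both genes and below every palbociclib tumour. KRT5 was at 0.74 ± 0.17 (SE, edgeR adjusted p = 0.04) and TAGLN at 0.67 ± 0.12 (edgeR adjusted p = 0.0098), with the contractile genes MYLK at 0.73 ± 0.17 and LIMCH1 at 0.83 ± 0.19 (edgeR adjusted p = 0.04 and 0.037). KRT5 passed with 1 library left out only where that library was any 1 of palbociclib recovery tumours 1 and 3 or vehicle recovery tumours 1, 2 and 3. TAGLN did not pass when any 1 of palbociclib tumours 1 and 2 or vehicle tumour 2 was left out. MYLK passed with 1 library left out only where that library was any 1 of palbociclib recovery tumours 1 and 3 or vehicle recovery tumours 2 and 3, and LIMCH1 passed with 1 library left out only where that library was any 1 of palbociclib recovery tumour 3 or vehicle recovery tumours 1, 2 and 3. The other basal keratins KRT14 and KRT17 and the factor TP63 did not pass, at 0.36 ± 0.16, 0.16 ± 0.15 and -0.31 ± 0.36 (edgeR adjusted p = 0.46, 0.84 and 0.88). Of 39 luminal, apocrine and secretory genes 2 rose (5.13%, beside 0.14% of all tested genes), with a median of 0.09. PIP, a secreted protein of apocrine glands, had 10.7, 8.99 and 17.5 CPM in palbociclib tumours 1, 2 and 3, against 3.81, 2.51 and 4.11 CPM in vehicle tumours 1, 2 and 3, a log2 change of 1.83 ± 0.41 (edgeR adjusted p = 0.032), and PIP did not pass when any 1 of palbociclib tumours 1 and 3 or vehicle tumours 1, 2 and 3 was left out. FMO5, a monooxygenase, was at 1.06 ± 0.25 (edgeR adjusted p = 0.042), and FMO5 passed with 1 library left out only where that library was any 1 of palbociclib tumour 2 or vehicle recovery tumours 1, 2 and 3. The kallikrein KLK14 was the one of 41 squamous envelope, S100 and kallikrein genes to pass, at 1.67 ± 0.36 (edgeR adjusted p = 0.029), and KLK14 did not pass when any 1 of palbociclib tumours 1 and 3 or vehicle tumours 1 and 2 was left out.

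In no list stood 13 of the genes that rose, INSYN2B, VSNL1 and ENPP2 among them. NINJ1, a surface protein known from the rupture of dying cells, had 188, 187 and 194 CPM in palbociclib tumours 1, 2 and 3, against 134.7, 99.04 and 111 CPM in vehicle tumours 1, 2 and 3, a log2 change of 0.72 ± 0.15 (SE, edgeR adjusted p = 0.019). SLFN12 was at 0.72 ± 0.14 and TANK, an adaptor of innate signalling, at 0.57 ± 0.10 (edgeR adjusted p = 0.014 and 0.0082). NINJ1 did not pass when any 1 of palbociclib tumours 1, 2 and 3 or vehicle tumours 2 and 3 was left out. SLFN12 did not pass when any 1 of palbociclib tumours 1 and 3 or vehicle tumours 2 and 3 was left out, and TANK did not pass when vehicle tumour 2 was left out. Closer to the threshold were the channel gene CNGA1 at 0.88 ± 0.20, TTLL7 at 0.70 ± 0.15, GLIPR2 at 0.70 ± 0.15, the co-receptor TGFBR3 at 0.70 ± 0.15 and the histone demethylase KDM4A at 0.44 ± 0.10 (edgeR adjusted p between 0.029 and 0.04). PNRC1, a nuclear receptor coactivator and the riser of the hypoxia list, was at 0.54 ± 0.13 (edgeR adjusted p = 0.045). These 6 genes passed in 2 to 7 of the 12 leave-one-out fits. ENSG00000267194, which has no name in the annotation used, was at 1.10 ± 0.24 (edgeR adjusted p = 0.026), and ENSG00000267194 did not pass when any 1 of palbociclib tumours 1 and 3 or vehicle tumours 1, 2 and 3 was left out.

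Genes in no list made up 51 of the 317 that fell. UPP1, which breaks down uridine, had 21.6, 21.3 and 23.3 CPM in palbociclib tumours 1, 2 and 3, against 47.9, 69.9 and 58.1 CPM in vehicle tumours 1, 2 and 3. RELT, a receptor of the TNF receptor family, had 2.85, 4.55 and 2.99 CPM in palbociclib tumours 1, 2 and 3, against 9.62, 13.7 and 10.8 CPM in vehicle tumours 1, 2 and 3. NEURL1B, a ubiquitin ligase of Notch signalling, had 7.04, 7.23 and 3.67 CPM in palbociclib tumours 1, 2 and 3, against 20.1, 18.2 and 19.1 CPM in vehicle tumours 1, 2 and 3. In none of these genes did the groups overlap, and the log2 fold changes were -1.41 ± 0.14, -1.71 ± 0.22 and -1.68 ± 0.21 (SE, edgeR adjusted p = 9.2e-05, 5.6e-04 and 5.6e-04). WDR62 and GPSM2, which act at the spindle poles of dividing cells, were at -1.51 ± 0.18 and -1.05 ± 0.14 although the cell cycle list did not hold them. WDR76 was at -1.42 ± 0.17, PRELID2 at -1.15 ± 0.17 and the transporter SLC43A3 at -1.66 ± 0.23. All 8 passed in every one of the 12 leave-one-out fits. Larger and less even were the falls of AKAP12, a scaffold of protein kinase A, at -2.37 ± 0.43, the skin cation channel TRPV3 at -2.17 ± 0.39, GPAT3, an enzyme of triglyceride synthesis, at -2.01 ± 0.35, the transcription factor PRDM1 at -1.84 ± 0.41 and SELE at -1.85 ± 0.38 (edgeR adjusted p between 0.0058 and 0.032). TRPV3 had 14.1, 15.7 and 15.3 CPM in palbociclib tumours 1, 2 and 3, against 34.5, 106 and 62.8 CPM in vehicle tumours 1, 2 and 3, with vehicle tumour 2 far above the rest. AKAP12 did not pass when any 1 of palbociclib tumours 1 and 2 or vehicle recovery tumour 2 was left out. TRPV3 did not pass when any 1 of palbociclib tumours 1, 2 and 3 or vehicle recovery tumour 2 was left out, and GPAT3 did not pass when palbociclib tumour 1 was left out. PRDM1 did not pass when any 1 of palbociclib tumours 1, 2 and 3 or vehicle tumours 2 and 3 was left out. SELE, known as an adhesion molecule of endothelium, had 1.78, 2.27 and 2.03 CPM in palbociclib tumours 1, 2 and 3, against 5.37, 7.41 and 9.49 CPM in vehicle tumours 1, 2 and 3, and SELE did not pass when any 1 of palbociclib tumours 1, 2 and 3 or vehicle tumours 2 and 3 was left out. Of the endothelial genes in the marker list, PECAM1 ran from 65.2 to 114 CPM in palbociclib tumours and from 43.6 to 62.8 CPM in vehicle tumours, and KDR from 16.8 to 26.4 CPM and from 17.4 to 29.6 CPM in the same order. VWF was at most 1.78 CPM in palbociclib tumours and at most 1.04 CPM in vehicle tumours, and CDH5 and TEK were below 1 CPM in all 6. Their part in the values of SELE was not tested. Against vehicle tumour 1 alone the values were -1.42 for AKAP12, -1.20 for TRPV3, -1.23 for GPAT3 and -0.78 for PRDM1, none of which passed.

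Of annotated genes that do not code for protein 2 fell, 1 of 181 tested processed transcripts and 1 of 1068 tested processed pseudogenes. Of all tested genes 1.7% fell. No gene of the other annotated classes that do not code for protein passed, among them 1519 antisense and 853 lincRNA genes. AC091057.1, a processed transcript on chromosome 15 from 30658717 to 30772993, was at -1.28 ± 0.27 (SE, edgeR adjusted p = 0.022), and AC091057.1 did not pass when any 1 of palbociclib tumours 1 and 3 or vehicle tumours 1, 2 and 3 was left out. AC069499.1, a processed pseudogene on chromosome 3, was at -1.50 ± 0.34 (edgeR adjusted p = 0.04), and AC069499.1 passed with 1 library left out only where that library was any 1 of palbociclib recovery tumour 3 or vehicle recovery tumour 2. Both are uncertain, because reads of a near copy could be counted in them. Among 13443 protein-coding genes tested 315 fell and 25 rose.

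In the lists that remain, few genes or none passed, beside 1.84% of all tested genes. OAS3, an antiviral enzyme, fell at -0.82 ± 0.15 (SE, edgeR adjusted p = 0.0094) as the one of 59 interferon-stimulated and antigen presentation genes (median -0.06), and OAS3 did not pass when any 1 of palbociclib tumours 1 and 3 or vehicle tumour 2 was left out. FZD8, a Wnt receptor, had 73.2, 58.2 and 73.3 CPM in palbociclib tumours 1, 2 and 3, against 115, 141 and 106 CPM in vehicle tumours 1, 2 and 3 and was the one of 48 genes of the Wnt, Notch, TGF-beta and Hippo list to pass, at -0.83 ± 0.13 (edgeR adjusted p = 0.0026), in all 12 leave-one-out fits. None passed in the main edgeR fit among 72 mesenchymal, protease and matrix genes (ITGA5 at -1.78 ± 0.41), 38 sterol and fatty acid genes (FADS1 at -0.39 ± 0.12), 46 lysosome and autophagy genes (GUSB at -0.41 ± 0.10), 11 metallothionein and zinc genes (MT1X at -1.04 ± 0.25, MT2A at -1.83 ± 0.42) and 17 clock genes (PER2 at -0.44 ± 0.14). At an unadjusted p under 0.05 stood 13, 9, 3, 4 and 3 of them in that order, beside 1836 of all 18628 tested genes. DESeq2 called 6, 0, 1, 2 and 0, and limma voom called 4, 6, 2, 3 and 2. With the 6 libraries alone edgeR called 4, 2, 0, 1 and 1. Without vehicle recovery tumour 2 it called 2, 3, 1, 2 and 1. ADAM8 was at -0.72 ± 0.18, LPIN1 at -0.37 ± 0.13, SQSTM1 at -0.31 ± 0.12 and NFIL3 at -0.64 ± 0.18. MT2A, which binds zinc and copper, had 38.8, 43.9 and 41.99 CPM in palbociclib tumours 1, 2 and 3, against 106, 225 and 111 CPM in vehicle tumours 1, 2 and 3, with vehicle tumour 2 highest, and did not pass (edgeR adjusted p = 0.056). Apart from NDUFA4L2, none of the 53 oxidative phosphorylation genes passed and their median was 0.00. Of the 15 genes upstream of RB1, CCND1 alone passed. CDK4 had 43.1, 42.9 and 34.3 CPM in palbociclib tumours 1, 2 and 3, against 50.8, 37.9 and 32.7 CPM in vehicle tumours 1, 2 and 3, RB1 had 58.5, 62.1 and 65.6 CPM in palbociclib tumours 1, 2 and 3, against 61.5, 70.8 and 62.96 CPM in vehicle tumours 1, 2 and 3 and CDK6 had 315, 379.6 and 352 CPM in palbociclib tumours 1, 2 and 3, against 251, 367 and 277 CPM in vehicle tumours 1, 2 and 3, each with groups that overlapped, and CDKN1A was at -0.055 ± 0.18. Under some other settings the signs of CDKN1A, RB1 and CDK4 turned.

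**Figure D4:**
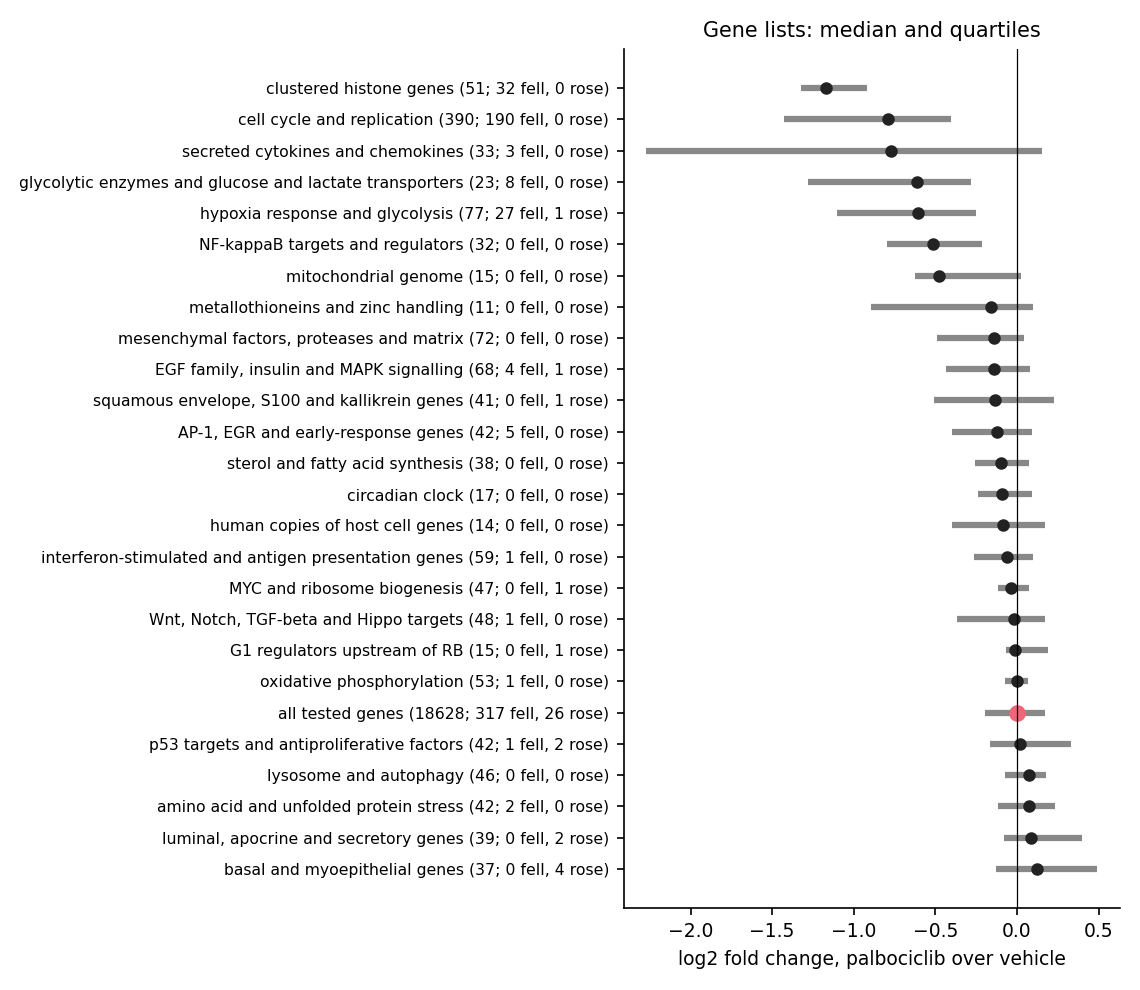
Points are the median log2 fold change of palbociclib over vehicle of each gene list, bars run from the lower to the upper quartile, and the coloured point is the median of all 18628 tested genes. The numbers in brackets are genes tested, then genes that fell and rose. Histone, cell cycle, cytokine, hypoxia and NF-kappaB lists lie to the left, and no list lies as far to the right.

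Whether the effect of palbociclib differed between the end of treatment and recovery was tested directly. In that test 41 of 18628 genes (0.22%) passed, all lower at the end of treatment relative to recovery and all among the 317, 35 of them in the cell cycle list. Outside it were ADM, FOS, UPP1, NEURL1B, WDR62 and WDR76. ADM was at -0.77 ± 0.27 after recovery, so the difference was -2.53 ± 0.42 (edgeR adjusted p = 0.037). FOS was at -0.05 ± 0.14 after recovery, with a difference of -1.13 ± 0.20 (edgeR adjusted p = 0.037). None of the other 26 hypoxia genes passed the test of the difference, and the 27 had a median of -1.29 at the end of treatment and of -0.64 in the recovery tumours, where all 27 were negative and none passed. Cell cycle genes that fell had medians of -1.43 and -0.27 and histone genes -1.25 and -0.26. Since the genes were chosen for their values at the end of treatment, a smaller value at another stage is partly set by that choice. After recovery 1 gene of all tested (0.00537%) passed.

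**Figure D5:**
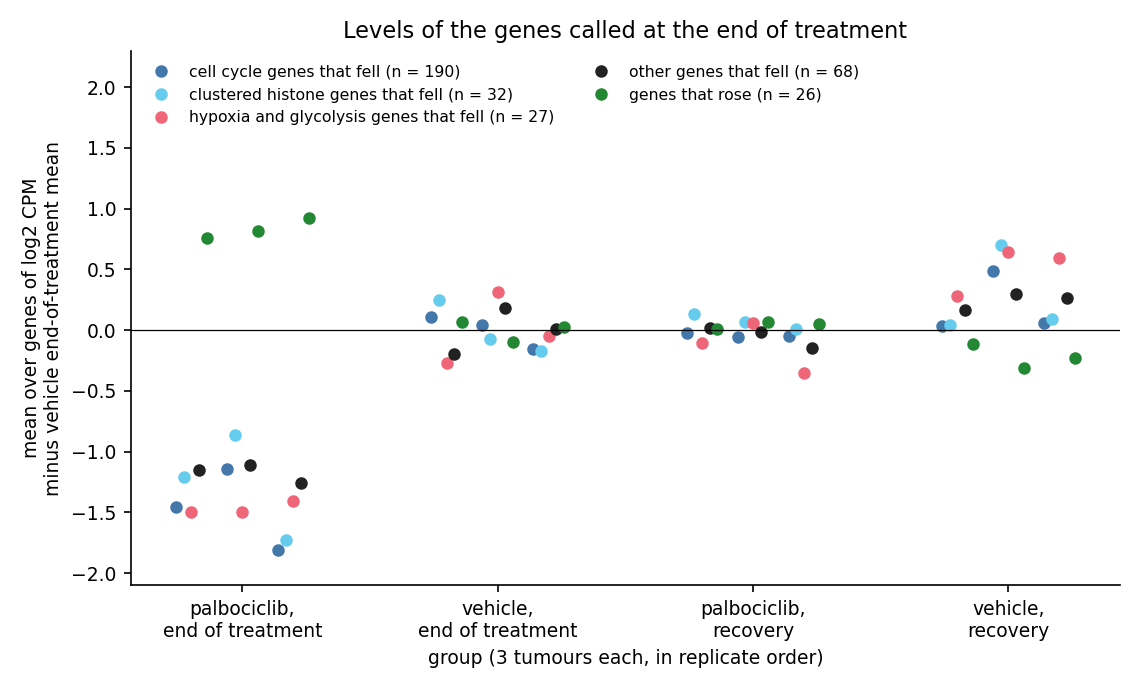
Each point is 1 tumour, with the y axis giving the mean over a group of genes of log2 CPM minus the mean of the vehicle tumours at the end of treatment, for genes chosen because they passed there. The 3 palbociclib tumours at the end of treatment are apart by that choice. After recovery the hypoxia and glycolysis genes lie between -0.35 and 0.06 in palbociclib tumours and between 0.28 and 0.64 in vehicle tumours.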

How the data were processed

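Total RNA of 12 xenograft tumours was sequenced from TruSeq libraries, per the labels' protocols. The authors deposited whole-number counts per gene, for human and mouse identifiers in one file per tumour. The submitters' processing notes name the builds GRCm38 and GRCh38 and the tools STAR, cutadapt, edgeR and CASAVA 1.8. The counting program, its strand setting and the treatment of reads that fit both species were not given in the sources used here.

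From each file 4 rows that name no gene were set aside. They held 53.5% of all counts in palbociclib tumours and 61.2% in vehicle tumours on average (exact permutation p = 0.4), and the last of them 14.2% ± 1.94 and 28.3% ± 12.0 (SD, n = 3 each, exact permutation p = 0.1, the smallest possible). Across all 12 files 484 identifiers stood on more than 1 row, and 713 repeated rows were removed. Symbols came from GENCODE 29, which matched 57980 of 58243 human identifiers. Human genes were filtered with filterByExpr (minimum count 10, total 15), scaled by TMM and tested with edgeR 4.0.16 (R 4.3.3) by its robust quasi-likelihood test, with all 12 libraries in 4 group means and Benjamini-Hochberg adjustment over 18628 genes. CPM are counts scaled to the TMM-adjusted total of human genes. SE of a log2 fold change is its size divided by the square root of the F statistic.

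On simulated counts of 18213 genes for palbociclib against vehicle at 2 weeks, the test recovered 66 of 100 genes set to differ 2-fold and 92 of 100 set to differ 4-fold, with 8 false calls. The changed genes all had a mean log2 CPM above 1. Counts were drawn independently for each gene and library, so no simulated library lay apart across many genes as vehicle recovery tumour 2 did. The rates may not hold for the real libraries. No 2 libraries of a group agreed within sampling noise (chi-square per degree of freedom 4.38 to 57.6). DESeq2 1.42.0, limma 3.58.1, other filters and scalings, covariates and left-out libraries were tried.

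The members and the 24 gene lists were chosen with earlier results of these data known. Named by rule are, outside the cell cycle list and with no overlap, a passed test and a mean log2 CPM of at least 1, the 15 genes of highest and the 15 of lowest log2 fold change. To these come the 4 of smallest p that passed in each list (2 where none passed), 12 in no list, up to 5 that do not code for protein, MKI67, TOP2A, CCNB1 and 3 more cell cycle genes, CCND1, CDK4, CDK6, RB1 and CDKN1A, and any gene that rose, some of which are not reported here. VEGFA, SLC2A1, BNIP3, PDK1, PFKP, PFKFB3, P4HA1, HK2, PGK1, LDHA, TPI1, EREG, LIF, CCL20, IL1A, PTGS2, ICAM1, CSF3, NRG1, KRT14, KRT17, TP63 and EPCAM were added after their values were seen, as were ALDOC, MAFF, SLC6A8, GTSE1 and the marker genes named.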

Additional observations from a re-analysis of the deposited data

Results flagged for a closer look

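For these genes the effect of palbociclib at the end of treatment differed from that after recovery by a test of the difference itself in edgeR with Benjamini-Hochberg adjustment, in which 41 of 18628 genes passed. The values are differences of log2 fold changes, end of treatment minus recovery. Among cell division genes they were -2.92 for the helicase PIF1, -2.31 for the mitotic kinesin KIF20A, -2.14 for MKI67 and -1.84 for the kinetochore motor CENPE. Outside that list they were -2.53 for ADM, -1.73 for NEURL1B, -1.54 for WDR62, -1.30 for WDR76, -1.18 for UPP1 and -1.13 for FOS. No outlier test was run within the groups, which hold 3 tumours each.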

How the results depend on the processing

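No paired analysis was possible because the labels give the tumours no shared numbers. Of 343 genes that passed, leaving out 1 library gave 159 to 748, and the settings that moved the count most were 524 with DESeq2, 931 with limma voom, 753 with no low-count filter, 689 with the 6 libraries alone, 221 with the fourth unnamed share as covariate, 147 with the mouse share, 182 at an adjusted p under 0.01 and 95 without vehicle tumours 2 and 3. The 317 lower genes became 151 to 579 with 1 library left out, and 723, 625, 534, 139, 174 and 95 with limma voom, no filter, 6 libraries, the mouse share, the stricter threshold and without vehicle tumours 2 and 3. The 26 higher genes became 6 to 169 with 1 library left out, 63 with DESeq2, 208 with limma voom, 128 with no filter, 155 with 6 libraries, 54 with the third unnamed share, 13 with human and mouse genes scaled together, 4 with the fourth unnamed share, 4 with the mitochondrial share, 8 with the mouse share, 8 at the stricter threshold and 0 by edgeR without vehicle tumours 2 and 3. The 27 hypoxia and glycolysis genes that fell became 14 to 41 with 1 library left out, 44 with limma voom, 11 with the fourth unnamed share, 13 with the mitochondrial share, 15 with the mouse share and 7 without vehicle tumours 2 and 3. Outside cell cycle and histone genes 121 passed, which became 41 to 458 with 1 library left out, 262 with DESeq2, 622 with limma voom, 474 with no filter, 429 with 6 libraries, 41 with the fourth unnamed share, 45 with the mitochondrial share, 43 with the mouse share and 16 without vehicle tumours 2 and 3. The 41 genes whose effect differed between stages became 12 to 161 with 1 library left out, 104 with DESeq2, 244 with limma voom, 320 with no filter, 78 with the third unnamed share, 16 with the fourth, 18 with the mitochondrial share, 23 with both species scaled together and 11 at the stricter threshold. The cause was not tested. Both the fourth unnamed share and the mitochondrial share were added as covariates after the data were seen.

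Signs turned only for genes that had not passed. CDK4 was at -0.15 to 0.18 with 1 library left out, 0.10 with limma voom, 0.053 with the mouse share and 0.23 with the third unnamed share. CDKN1A was at -0.15 to 0.12 with 1 library left out, 0.020 with the fourth unnamed share, 0.021 with the mouse share, 0.060 with the third unnamed share and 0.15 without vehicle tumours 2 and 3. EPCAM was at -0.045 (without vehicle tumour 2) to 0.22 with 1 library left out, -0.11 with the third unnamed share and -0.023 without vehicle tumours 2 and 3. MT-RNR2 was at 0.43 with the fourth unnamed share and 0.17 without those tumours, RB1 at 0.12 with the third unnamed share and 0.012 without them, and TP63 at 0.027 with the third unnamed share.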
